A study of Mus musculus with 5 samples.

Results

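The promoters described here are those of nuclear genes for mitochondrial respiration and translation. They are the capture Hi-C baits named for subunits and assembly factors of the respiratory chain and the ATP synthase, for proteins of the mitochondrial ribosome and for the import machinery of the outer and inner membrane. Members were chosen by name alone, from both deposited interaction tables, as baits on chromosomes 1 to 9 with cis interactions and a gene symbol that starts with Nduf, Cox and a digit, Uqcr, Atp5, Sdh, Mrpl, Mrps, Timm or Tomm. The original baits, which are single DpnII restriction fragments, held 61 members of 53 genes among 7674 baits of 5587 genes, with 281 of 28991 listed interactions. The extended baits, which are bins of about 5 kb, held 91 members of 84 genes among 11063 baits of 8390 genes, with 553 of 50644 listed interactions. In all, 85 genes had a bait in either table and 52 in both, and Mrpl33 was the 1 gene found with the original baits alone.

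The study compared promoter contacts in the supporting cells of the embryonic testis and ovary. Sertoli cells were sorted by the GFP of Sox9IRES-GFP gonads at embryonic stage E13.5 and gave 3 libraries. Pre-granulosa cells, sorted at the same age by the mCherry of Enh8-mCherry gonads, gave 2 libraries, and each library came from about 100000 cells. Both tables report 1 CHiCAGO score per interaction and cell type, so no value below has a replicate error or a p-value, and no read depth is given for them. CHiCAGO models the ligation products expected between a bait and a bin from their distance and from noise, and a high score marks a pair with more products than that model predicts. A score of 5 or more is a call, and each listed interaction reached it in Sertoli cells, in pre-granulosa cells or in both. In the pairs of scores below the Sertoli score comes first. The number after a gene name in a bait is that of the transcript it was designed for. A score listed at 0 can be a missing estimate. The tables carry no expression values, so the cell types were not checked against marker genes here.

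Most mitochondrial proteins are encoded in the nucleus. Complexes I to IV of the respiratory chain pass electrons to oxygen and build a proton gradient that the ATP synthase uses, and the mitoribosome translates the few messenger RNAs of the mitochondrial genome, which encode core subunits of these complexes. The other subunits are made in the cytosol and enter through the TOM channel of the outer membrane and the TIM complexes further inside. Promoters of such genes are generally active in most cell types, are often CpG-rich, and are known targets of NRF-1, of the ETS family factor GABP and of YY1.

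RefSeq promoter windows of GRCm38.p6, from 250 bases before to 50 bases after a transcript start, were matched to the extended bait bins by symbol and position, which gave 76 windows of 72 member genes. A transcript start of another gene lay head to head within 1000 bases in 21 of these windows (27.6%, 95% Wilson interval 18.8 to 38.6), which belong to 19 genes. The share was 11.2% of the 8036 windows that lie in baits named for their gene and 11.5% of all 18612 windows on these chromosomes. In 3 of the 21 windows the partner is also a gene of the studied families. Mrps11, a protein of the small mitoribosomal subunit, starts 42 bases from Mrpl46, a protein of the large one. Timm8b, a small chaperone of the space between the membranes, starts 52 bases from Sdhd, a membrane anchor subunit of complex II, and Ndufb5 of complex I starts 308 bases from Mrpl47. In a further window the partner came from a list of other mitochondrial genes, where Mrps12 starts 147 bases from Sars2, the mitochondrial seryl-tRNA synthetase.

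Motifs were searched on both strands as fixed letters. The ETS motif CCGGAAG, bound by GABP, was found in 32 of the 76 windows (42.1%), in 12.4% of named windows in baits and in 8.83% of all windows. The NRF-1 motif, written as GC followed by the core GCATGCGC, was found in 6 windows (7.89%, against 1.47% and 0.978%), which belong to Ndufaf4, Ndufaf5, Mrpl9, Atp5k, Cox6a1 and Uqcrc1. The core itself, which lies within the full motif, was found in 10 windows (13.2%, against 3.67% and 2.60%), and the YY1 motif, written as AAGATGG followed by CGGC, in 4 (5.26%, against 0.884% and 0.591%), those of Mrpl35, Ndufa9, Timm50 and Mrps11. Member windows also held more CpG, a median of 19.5 against 14 in named windows and 7 in all windows, and a median GC content of 58.8% against 57.0% and 53.0%. A letter match depends on base composition and is a description of the window, not a bound site.

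**Figure D1:**
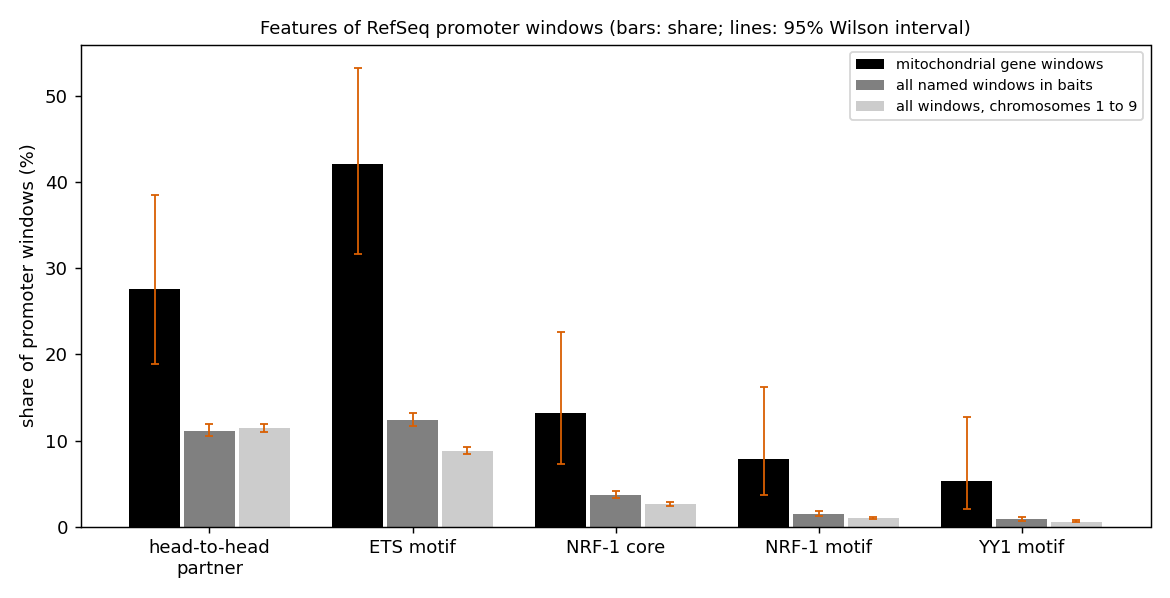
Share of RefSeq promoter windows, in percent, with a head-to-head partner or with each motif, for the 76 windows of mitochondrial genes, the 8036 named windows in baits and all 18612 windows; lines show 95% Wilson intervals. The shares of the 76 windows are the highest of the 3 sets for each feature, with 42.1% for the ETS motif and 27.6% for a head-to-head partner.

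The stretches of 6 promoters are shown because the contact results below return to these genes or because they show the head-to-head layout. The first 3 run from 30 bases inside the partner's transcript to 30 bases inside the named gene's, and the others end 30 bases after the start. All are read 5′ to 3′ on the strand of the named gene, from RefSeq, in GRCm38.p6 coordinates. Capitals mark the ETS motif in Ndufs3, Timm8b, Mrps22 and Cox6a1, and the NRF-1 motif in Mrpl9 and, as the first of its marked runs, Cox6a1. No motif searched lies wholly in the Mrps11 stretch.
Ndufs3 with Kbtbd4, chr2:90904692-90904769, minus strand: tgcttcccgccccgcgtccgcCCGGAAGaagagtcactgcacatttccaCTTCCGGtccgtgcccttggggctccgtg
Timm8b with Sdhd, chr9:50603820-50603930, plus strand: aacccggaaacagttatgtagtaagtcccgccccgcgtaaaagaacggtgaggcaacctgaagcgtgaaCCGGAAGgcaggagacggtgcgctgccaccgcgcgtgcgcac
Mrps11 with Mrpl46, chr7:78783060-78783160, plus strand: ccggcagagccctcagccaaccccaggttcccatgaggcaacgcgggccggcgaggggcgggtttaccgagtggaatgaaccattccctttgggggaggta
Mrps22, chr9:98601650-98601779, minus strand: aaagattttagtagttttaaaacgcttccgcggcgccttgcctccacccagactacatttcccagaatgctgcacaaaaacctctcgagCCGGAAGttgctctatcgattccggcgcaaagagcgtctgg
Mrpl9, chr3:94443236-94443365, plus strand: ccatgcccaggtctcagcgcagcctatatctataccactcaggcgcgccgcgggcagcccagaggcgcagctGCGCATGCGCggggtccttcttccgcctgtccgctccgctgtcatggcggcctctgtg
Cox6a1, chr5:115348929-115349158, minus strand: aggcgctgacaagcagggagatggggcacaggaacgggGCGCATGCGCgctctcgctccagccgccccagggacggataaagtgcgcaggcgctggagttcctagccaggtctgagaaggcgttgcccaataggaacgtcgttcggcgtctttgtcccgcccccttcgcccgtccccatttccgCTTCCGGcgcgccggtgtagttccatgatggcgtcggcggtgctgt

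Contacts were also counted by promoter layout. In the extended table the 19 bins with a head-to-head start had 111 listed contacts and the 53 others 265. The share called in Sertoli cells was 76.6% for the first and 77.4% for the others (78.7% over all bins), the share called in pre-granulosa cells 63.1% and 63.0% (55.9%), and the share ending in another bait bin 52.3% and 67.5% (54.8%). With the original baits the 12 head-to-head fragments had 55 listed contacts, of which 76.4% were Sertoli and 58.2% pre-granulosa calls, and the 27 others had 110, with 78.2% and 42.7% (80.2% and 41.5% over all baits).

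Members were called more often in Sertoli than in pre-granulosa cells, as baits in general were. With the original baits, 224 of the 281 listed interactions were Sertoli calls (79.7%, against 80.2% over all baits) and 134 were pre-granulosa calls (47.7%, against 41.5%). Both cell types called 77 (27.4%, against 21.7%), Sertoli cells alone 147 (58.5% over all baits) and pre-granulosa cells alone 57 (19.8% over all baits). There were 1.67 Sertoli calls per pre-granulosa call, against 1.93 over all baits. This ratio turned to 0.836 when as many of the highest Sertoli scores of the whole table were kept as there were pre-granulosa calls, which sets the ratio over all baits to 1. With equal totals in the extended table the members had 340 Sertoli and 331 pre-granulosa calls, a ratio of 1.03. Of the Sertoli calls, 34.4% were also pre-granulosa calls (95% Wilson interval 28.5 to 40.8, against 27.0% over all baits), and of the pre-granulosa calls 57.5% were also Sertoli calls (49.0 to 65.5, against 52.3%). These intervals cover counting error only, and neighbouring bins of a bait are not independent.

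The larger overlap rested on few baits. Ndufs3-201, Mrpl48-201, Tomm40l, Mrpl48-208 and Mrpl48-205 each had 10 or more listed interactions (5 of 61 baits, against 8.43% of all baits) and together held 96 of the 281. Without them, 22.4% of Sertoli calls and 43.2% of pre-granulosa calls were called in both, against 23.4% and 44.2% over all baits under the same limit, and the ratio was 1.93 against 1.89. The median member bait had 3 listed interactions, against 2 over all baits, and 13 members had 1 (21.3%, against 35.2% of all baits). Of the 147 Sertoli-specific calls, 51 scored at least 3 in pre-granulosa cells (34.7%, against 33.9% over all baits) and 31 scored under 1 (21.1%, against 23.1%). Of the 57 pre-granulosa-specific calls, 28 scored at least 3 in Sertoli cells (49.1%, against 48.3%) and 6 under 1 (10.5%, against 9.71%).

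**Figure D2:**
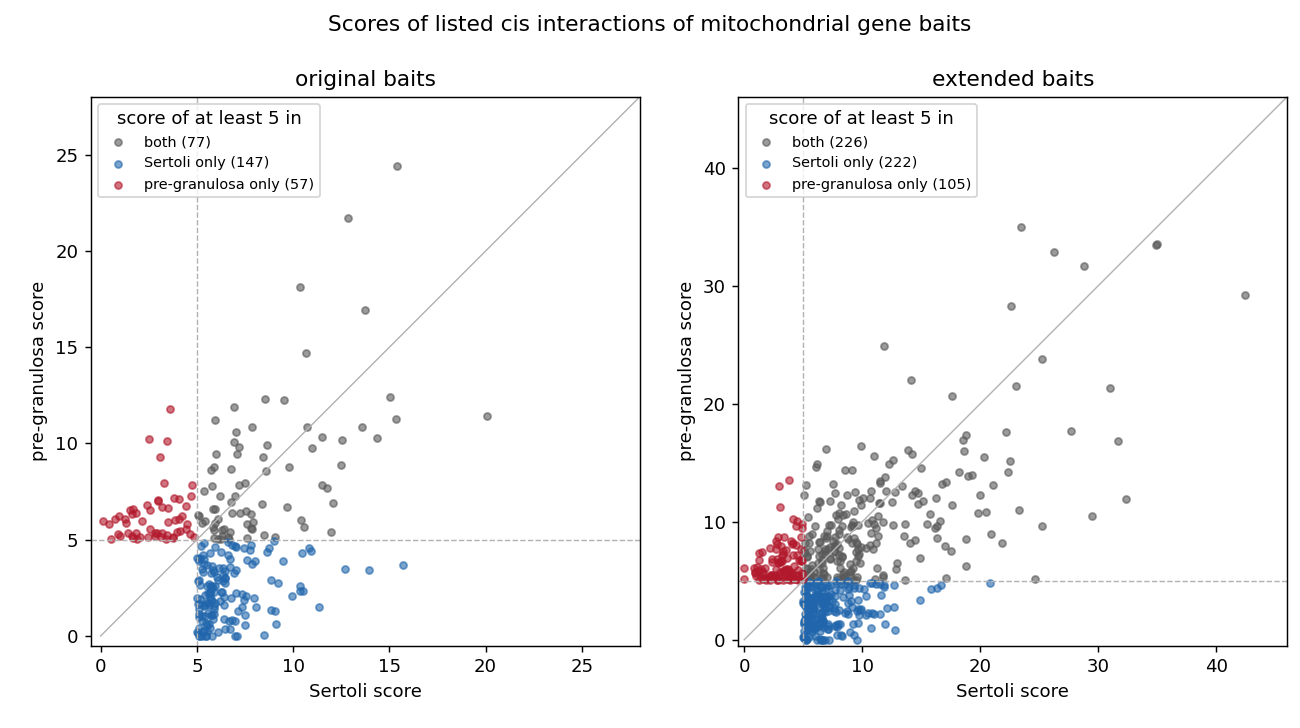
Sertoli score (x axis) against pre-granulosa score (y axis) of each listed interaction of the mitochondrial gene baits, with the original baits on the left and the extended baits on the right; dashed lines mark the score of 5 and the diagonal marks equal scores. The lower left square is empty because each interaction reached 5 in at least 1 cell type, and the Sertoli-only points (147 and 222) outnumber the pre-granulosa-only points (57 and 105).

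By bait, 41 of 61 members had more Sertoli calls (65.2% of all baits), 13 had more pre-granulosa calls (22% of all baits) and 7 had equal numbers (12.7% of all baits). For 32 baits (52.5%, against 58.0% of all baits) the numbers differed by at most 1. Of 59 members with a bin in the extended table, 12 turned from more calls in one cell type to more in the other (20.3%, against 13.3% over all baits), 8 of them to more pre-granulosa calls (13.6%, against 7.57%). The median member call lay farther out than the median over all baits, while the Sertoli interval includes the value over all baits. Sertoli calls had a median distance of 48.1 kb (order-statistic interval 38.8 to 57.3, against 42.6 kb over all baits) and pre-granulosa calls one of 44.8 kb (35.3 to 58.5, against 26.0 kb). Calls of both cell types had a median of 38.6 kb, against 17.3 kb. Without the 5 baits named above the medians were 46.4 kb and 45.8 kb, against 33.9 kb and 19.4 kb. Of the listed contacts 140 lay at 50 kb or more (45.3% over all baits). A single original contact ended in another bait fragment (0.1% over all baits), that of Tomm40l with Cfap126 (5.64 and 0.636).

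**Figure D3:**
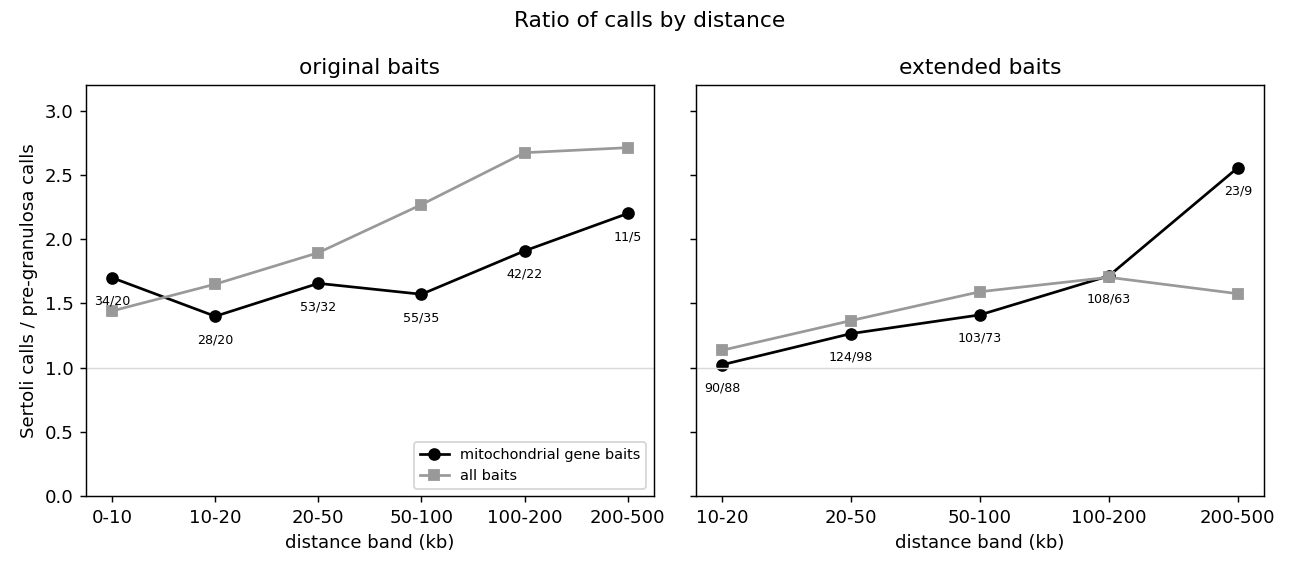
Sertoli calls divided by pre-granulosa calls in bands of distance in kb, for the mitochondrial gene baits (black, with both numbers of calls) and all baits (grey), with the original baits on the left and the extended baits on the right. With the original baits the members lie between 1.40 and 2.20, below all baits in each band but the nearest, where they are at 1.70 against 1.44; with the extended baits they lie below all baits up to 100 kb, at 1.71 against 1.70 from 100 to 200 kb and at 2.56 against 1.58, on 23 and 9 calls, from 200 to 500 kb.

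The extended baits gave 448 Sertoli calls (81.0% of 553, against 78.7%), 331 pre-granulosa calls (59.9%, against 55.9%) and 226 calls of both (40.9%, against 34.6%). Sertoli-specific calls numbered 222 (44.1% over all bins) and pre-granulosa-specific calls 105 (21.3%), and 288 of the listed contacts lay at 50 kb or more (48.4% over all bins). Calls of both made up 50.4% of Sertoli calls (45.8 to 55.1, against 43.9% over all baits) and 68.3% of pre-granulosa calls (63.1 to 73.1, against 61.8%). Without the bins of 10 or more listed interactions these shares were 43.4% and 59.0%, against 42.1% and 56.1% over all bins under the same limit. The median distances were 54.7 kb for Sertoli and 42.4 kb for pre-granulosa calls, against 48.0 kb and 37.9 kb over all bins. More Sertoli calls were found at 48 of 91 bins (53.6% of all bins), more pre-granulosa calls at 21 (26.4%) and equal numbers at 22 (20%). Among the bins, 15 had 10 or more listed interactions (11.4% of all bins) and held 277 of the 553. The extended baits have no listed interaction under 10 kb, where the original baits have 41 member interactions and 6196 over all baits. Medians, overlaps and turns between the tables therefore compare unlike ranges of distance. Of the 281 original interactions, 182 (64.8%, against 60.6% over all baits) overlapped a listed extended interaction of an overlapping bait. Among the 147 Sertoli-specific calls of the original baits, 35 became pre-granulosa calls with the extended baits (23.8%, against 16.1% over all baits), and 14 of the 57 pre-granulosa-specific calls became Sertoli calls (24.6%, against 20.6%). Of the 222 Sertoli-specific calls of the extended bins, 44.1% scored at least 3 in pre-granulosa cells (39.8% over all bins) and 15.8% under 1 (18.1%), and of the 105 pre-granulosa-specific calls 57.1% scored at least 3 in Sertoli cells (48.4%) and 4.76% under 1 (12.3%).

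Not every bait lies at the start of the gene it is named for. Of 48 original baits whose gene has a RefSeq promoter entry, 37 held a start of that gene and 11 did not. The fragment named Mrpl48-201 lies 35.1 kb from the nearest RefSeq start of Mrpl48, Uqcrc1-206 10.7 kb and 1 of the Ndufb5 fragments 7.52 kb. Of 79 extended bins, 71 held a start. The bin named for both Apoe and Tomm40 lies 11.6 kb from a Tomm40 start and holds starts of Apoe, the gene of apolipoprotein E. In addition 16 of the 91 extended bins also name a gene outside the families, and contacts of the genes in 1 bin cannot be told apart. This counts bait names only. Further bins hold a RefSeq start of an outside gene that is not named, such as Arfip2 at Timm10b, Ncapd2 at Mrpl51 and Mitd1 at Mrpl30. The original fragments of these genes that hold their start do so too, and the same limit applies to their contacts.

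**Figure D4:**
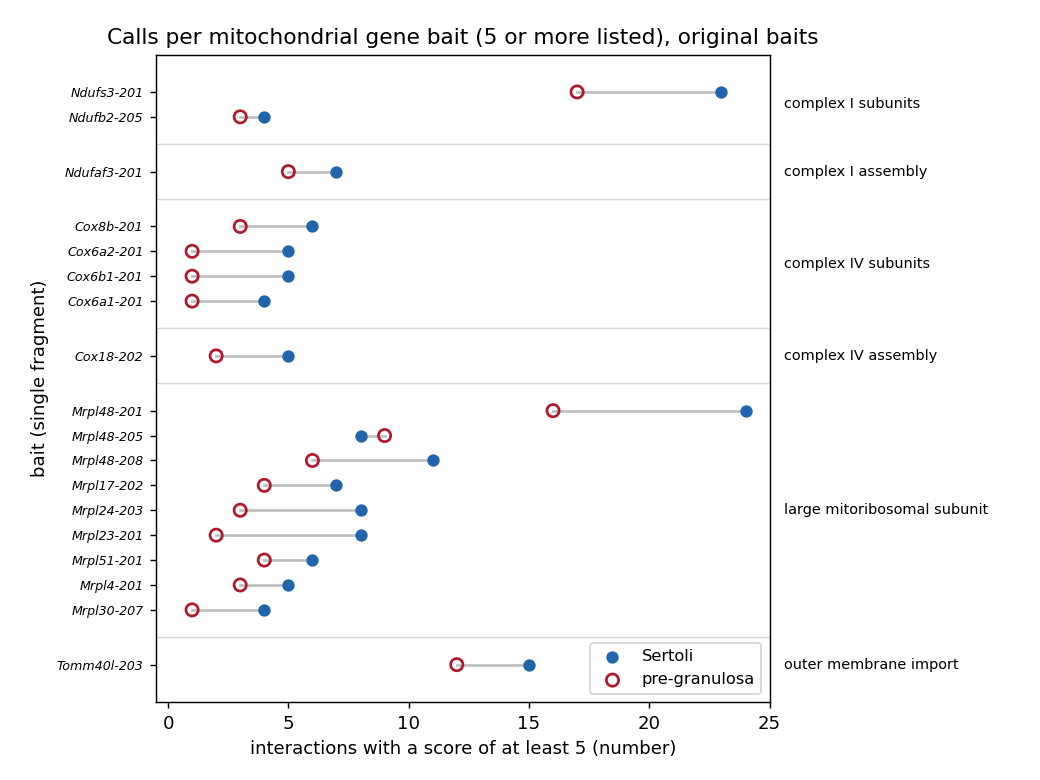
Number of interactions with a score of at least 5 for each of the 18 original baits with 5 or more listed interactions, ordered by functional group; filled blue points are Sertoli cells and open red points pre-granulosa cells, joined by a line. Ndufs3-201 (23 and 17), Mrpl48-201 (24 and 16) and Tomm40l (15 and 12) stand at the right, and of the baits shown Mrpl48-205 alone had more pre-granulosa than Sertoli calls (9 and 8).

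Complex I is the entry point of electrons from NADH. The 11 original baits of 9 genes with its subunit symbols had 39 Sertoli and 29 pre-granulosa calls, with 18 of both. The ratio was 1.34, against 1.93 over all baits. With equal totals of calls the order turned, to 24 and 29, and over the extended bins to 59 and 62. Groups here follow the symbol, which for Ndufa4 (1 Sertoli call and no pre-granulosa call) need not name its complex. The fragment named for Ndufs3, a core subunit of the peripheral arm, held most of the calls of the original baits. This fragment (chr2:90904779-90905345, mm10) lies 0.058 kb from the gene's RefSeq start, which faces that of Kbtbd4 in the stretch shown first above. It lies on the Kbtbd4 side of that start, so its contacts cannot be told apart between Ndufs3 and Kbtbd4. It had 25 listed contacts with 23 Sertoli calls, 17 pre-granulosa calls and 15 of both, from 44.3 kb on one side to 168 kb on the other. Scores ran from 3.11 to 15.4 in Sertoli cells (median 7.05) and from 2.14 to 24.4 in pre-granulosa cells (median 6.68). The strongest contact, 8.24 kb away at Ptpmt1, a mitochondrial phosphatase of cardiolipin synthesis, scored 15.4 in Sertoli and 24.4 in pre-granulosa cells.

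Further along the chromosome, 7 bins of the Ndufs3 fragment overlapped Celf1, an RNA-binding protein gene, with 6 Sertoli calls, 5 pre-granulosa calls and 4 of both. Neighbouring bins there could differ in order, with 6.48 and 3.04 at 55.7 kb but 3.11 and 9.29 at 61.0 kb. A second group of high scores lay at Psmc3, which encodes an ATPase of the proteasome, with 13.6 in Sertoli and 10.9 in pre-granulosa cells at 152 kb, and at Slc39a13, a zinc transporter gene, with 10.7 and 10.8 at 162 kb. On the other side the bins at Mtch2, a gene for an outer membrane protein of mitochondria, scored 5.38 and 7.54 at 44.3 kb and 7.60 and 5.79 at 39.0 kb. The extended bin, which also names Kbtbd4, had 35 listed contacts, 33 Sertoli and 23 pre-granulosa calls. Its bait partners included Psmc3 (19.3 and 14.0), Celf1 (14.9 and 6.93), C1qtnf4 (7.98 and 10.2) and the 2 bins of Spi1, the gene of the blood cell factor PU.1, at 177 kb (5.06 and 1.40) and 194 kb (8.48 and 5.73).

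**Figure D5:**
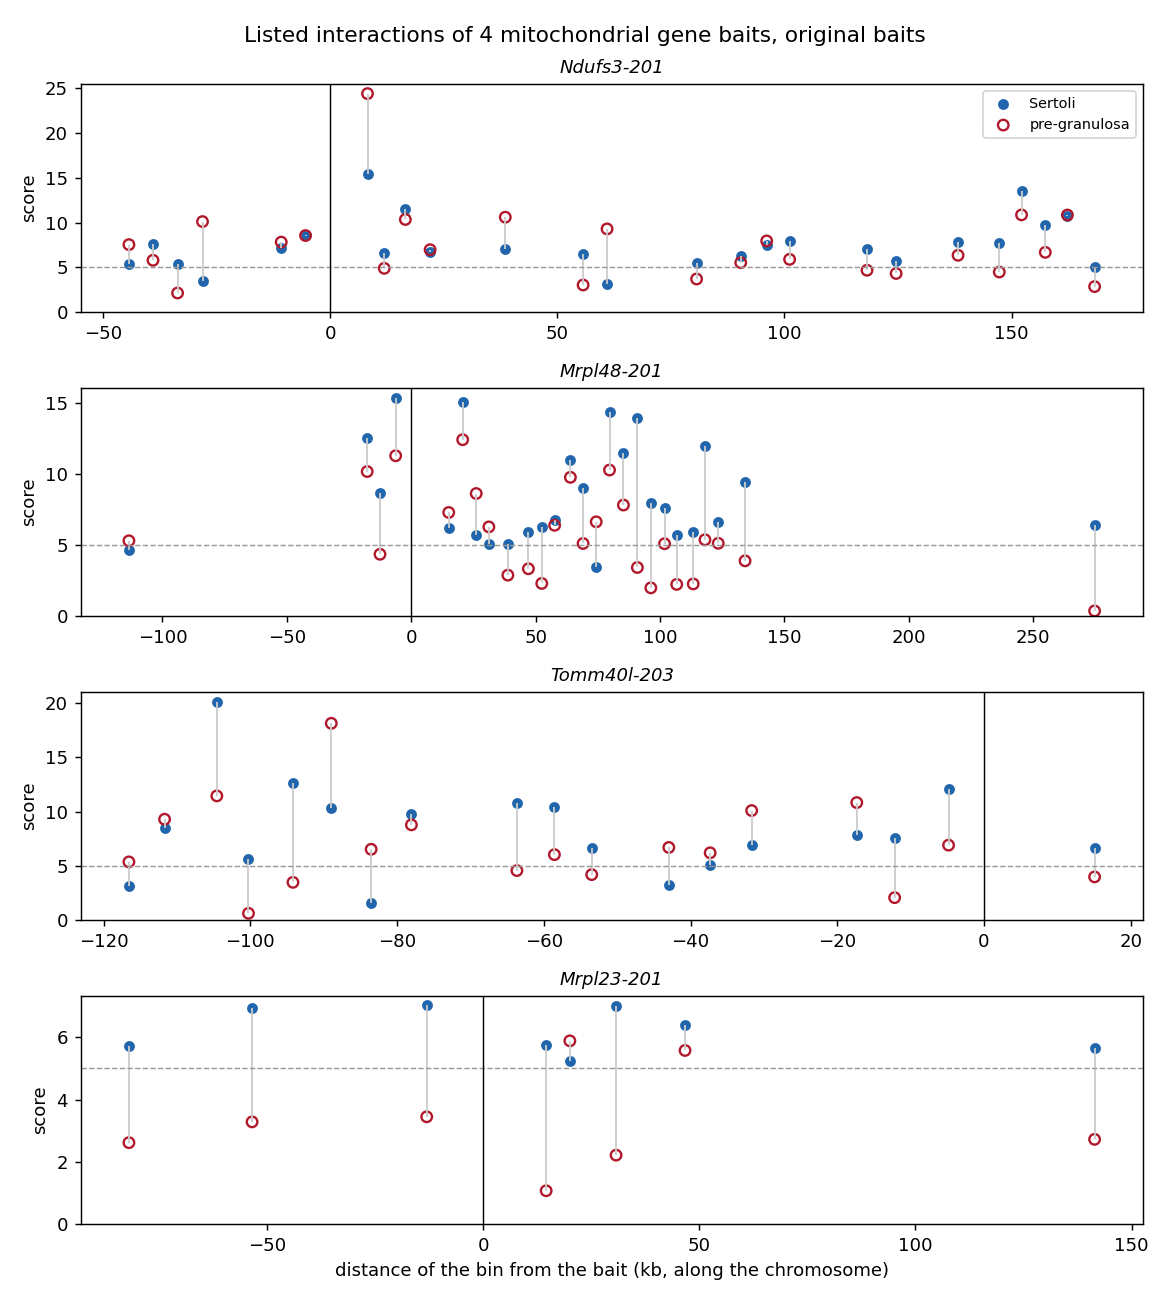
Score of each listed interaction against the distance of its bin from the bait in kb, for Ndufs3-201, Mrpl48-201, Tomm40l and Mrpl23-201 (original baits), with Sertoli cells as filled blue and pre-granulosa cells as open red points; the dashed line is the score of 5. For Ndufs3-201 the highest pair (15.4 and 24.4) is next to the bait and another group lies near 152 kb, whereas 17 of the 18 bins of Tomm40l lie on one side of it.

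The other complex I baits had 1 to 5 listed contacts with the original fragments. Ndufa5, an accessory subunit gene, contacted 3 bins over Wasl, a regulator of actin branching. Their scores were 1.81 and 6.36 at 94.9 kb, 8.77 and 4.55 at 100 kb, and 6.99 and 0 at 111 kb, so the cell types differed in which bin was called. Ndufb2, another accessory subunit, was called in both cell types at 137 kb, with 5.96 in Sertoli and 11.2 in pre-granulosa cells, and in pre-granulosa cells alone at 164 kb on the other side (0.423 and 5.81). Among extended bins, Ndufb6 had more pre-granulosa calls (3, against 1 Sertoli call), the highest at Smim27 (6.05 and 14.6).

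Complex I assembly factors had 10 Sertoli and 6 pre-granulosa calls over 4 original baits. Ndufaf3, which acts early in assembly, had 7 and 5. Its 5 bins over Qrich1 gave 4 Sertoli and 2 pre-granulosa calls, and the bin over Gpx1, a glutathione peroxidase gene, 225 kb away, scored 5.77 and a listed 0. The extended bin of Ndufaf3, which also names Dalrd3, had 26 Sertoli calls and 17 pre-granulosa calls, 15 of both. Its strongest partners were Wdr6 (22.6 and 28.3), Qrich1-214 (16.8 and 13.2), Usp19 (16.3 and 12.0) and Lamb2, a basement membrane laminin gene (13.6 and 9.76). Qars-201 (9.78 and 2.48) and Prkar2a (7.95 and 1.29) were called in Sertoli cells alone. Ndufaf1 contacted Tyro3, a receptor tyrosine kinase gene, 136 kb away, with 6.40 in Sertoli and 0.0320 in pre-granulosa cells.

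Complex II, which oxidises succinate, was represented with the original baits by its assembly factor Sdhaf1 alone. Both of its contacts were called in both cell types, with 7.06 and 9.48 at 8.46 kb and 6.77 and 8.69 at 14.6 kb. From its extended bin Sdhb, the iron-sulfur subunit, contacted Crocc in both cell types (7.28 and 7.86, 95.9 kb) and Padi6 in Sertoli cells (5.23 and 2.96, 218 kb). Complex III passes electrons from ubiquinol to cytochrome c, and its core protein genes Uqcrc1 and Uqcrc2 gave 6 Sertoli and 2 pre-granulosa calls with the original baits, none of both. Uqcrc2 contacted a bin 196 kb away with 7.07 in Sertoli cells and 0 listed in pre-granulosa cells. Uqcrc1-206, a fragment away from the gene's start, scored 9.11 and 0.620 at Slc26a6, 6.72 and 0.349 over Col7a1 at 24.8 kb, but 3.82 and 7.17 at a nearer Col7a1 bin.

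The 3 extended Uqcrc1 bins shared partners on the same side of the gene. All 3 contacted Ip6k2, an inositol phosphate kinase gene, in Sertoli cells only, with 5.32, 6.88 and 6.58 in Sertoli cells and 1.17, 0 and 0 in pre-granulosa cells. All 3 also contacted both Celsr3 bins, of a cadherin family gene. At Celsr3-201 the Sertoli scores were 12.8, 8.15 and 9.65 and the pre-granulosa scores 5.96, 4.18 and 2.64, so pre-granulosa cells reached 5 from the bin at the gene's start, Uqcrc1-201, alone. That bin also contacted Trex1, with 5.04 in Sertoli and 12.2 in pre-granulosa cells.

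The 9 original subunit baits of complex IV, the terminal oxidase, belong to 8 genes and had 32 Sertoli and 9 pre-granulosa calls, 5 of both, a ratio of 3.56 against 1.93 over all baits. There were more Sertoli calls at 8 of the 9 baits (65.2% of all baits). The extended numbers were 85 and 41, a ratio of 2.07 against 1.41 over all baits, and there complex IV assembly factors (12 and 4) and complex III (18 and 7) had higher ratios, 3.0 and 2.57. With equal totals of calls the subunit baits had 12 and 9 calls in the original table, a ratio of 1.33 against 1.5 for complex III (3 and 2), and 63 and 41 in the extended one. Of the 8 genes, Cox4i2, Cox6a2, Cox6b2, Cox7a1 and Cox8b encode isoforms known for restricted expression, such as in lung, muscle or testis. These 5 had 21 Sertoli and 7 pre-granulosa calls of 24 listed with the original baits. Cox5b, Cox6a1 and Cox6b1, of broadly expressed subunits, had 11 and 2 of 12 (80.2% and 41.5% over all baits). In the extended table the 5 had 65 and 31 of 70 and the broadly expressed subunits, there 5 genes, 20 and 10 of 24 (78.7% and 55.9% over all bins). The bin named for Cox6a2 and Itgad held 32 of the 65 and 14 of the 31. This split was made after the values had been seen.

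Cox8b, a muscle isoform, had the strongest complex IV contacts. Its fragment (chr7:140899787-140901236) scored 12.8 in Sertoli and 21.7 in pre-granulosa cells with a bin 57.3 kb away, next to Scgb1c1, and 11.8 and 7.69 with a bin over Bet1l and Odf3. The extended bin scored 35.0 and 33.5 with Scgb1c1, a secretoglobin gene, the highest lower score of any member bait pair. On the other side, a bin at 147 kb scored 5.48 and a listed 0. Cox6a2, another muscle isoform, had 5 Sertoli calls and 1 pre-granulosa call. Its extended bin, which also names the integrin gene Itgad, had 32 Sertoli and 14 pre-granulosa calls, the largest difference of any member. Pycard, an inflammasome adaptor gene (29.5 and 10.5), and Trim72 (24.7 and 5.16) were called in both cell types, whereas the integrin gene bins Itgam-201 (11.2 and 4.69) and Itgax-201 (14.9 and 3.40) and Gm49368 (20.8 and 4.81) were called in Sertoli cells alone.

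Cox6b1 contacted Cd22, a B cell receptor gene, 239 kb away with 8.49 in Sertoli and 0.0745 in pre-granulosa cells, the largest difference towards Sertoli cells among the original contacts on an inverse hyperbolic sine scale of the scores. Cox5b scored 5.34 and 0.263 over Ankrd39 and 5.54 and 0.254 over Sema4c, and its extended bin scored 25.2 and 9.62 with Ankrd39. Cox6b2, the testis isoform, had a single original contact, over Il11, called in pre-granulosa cells (1.63 and 5.20). With the extended bait it had 11 Sertoli and 4 pre-granulosa calls, among them Brsk1 (11.0 and 2.19) and Ptprh (5.20 and 0). The bins over Il11 then scored 9.41 and 12.6 at 20.9 kb and 7.82 and 6.69 at 31.3 kb, so the pre-granulosa call of the fragment became a call of both cell types. The extended bins of Cox7a1 and Capns1, 10.2 kb apart, scored 28.8 and 31.7. Among assembly factors, Cox18, an insertase for complex IV, had 6 listed bins, all over its neighbour Ankrd17, with 5 Sertoli and 2 pre-granulosa calls. Cox20 contacted Efcab2 in pre-granulosa cells alone (0.528 and 5.05).

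The ATP synthase was the 1 group with more pre-granulosa than Sertoli calls with the original baits, 6 against 5 over 4 baits, and over the extended bins it had 10 against 14. Atp5j2, of the membrane part, contacted Zkscan14 7.37 kb away with 13.7 in Sertoli and 16.9 in pre-granulosa cells, and with the extended baits 23.5 and 34.9. Atp5l, another membrane subunit, had 3 contacts over Kmt2a, a histone methyltransferase gene, of which 1 was called in Sertoli cells (5.51 and 2.60) and 2 in pre-granulosa cells (2.56 and 5.54, and 2.56 and 6.53). From the extended bin Atp5l had 4 Sertoli and 3 pre-granulosa calls, the opposite order.

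The large mitoribosomal subunit gave 91 Sertoli and 52 pre-granulosa calls over 13 original baits of 10 genes, a ratio of 1.75 against 1.93 over all baits, and 12 of the 13 had more Sertoli calls (65.2% of all baits). Over the 19 extended bins it gave 108 and 100, a ratio of 1.08 against 1.41 over all baits. Of these bins, 6 had more Sertoli calls, 7 had more pre-granulosa calls and 6 had equal numbers. Once totals were equalised, pre-granulosa calls became the more numerous in this group. They then stood at 52 against 42 Sertoli calls for original fragments, and at 100 against 93 for extended bins. Mrpl48, which has 3 original fragments on chromosome 7, gave 43 of the 91 Sertoli calls and 31 of the 52 in pre-granulosa cells. Mrpl48-201 (chr7:100546037-100548040), which lies towards the far end of the gene, had 24 Sertoli and 16 pre-granulosa calls, 14 of both, and 21 of its 26 listed contacts scored higher in Sertoli cells. Its Sertoli scores ran from 3.49 to 15.3 (median 7.21) and its pre-granulosa scores from 0.373 to 12.4 (median 5.22). The bin over Coa4, a complex IV assembly factor gene 6.27 kb away, scored 15.3 and 11.3. All 8 bins over Mrpl48 itself were Sertoli calls and 5 of them were also pre-granulosa calls.

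Beyond the start of Mrpl48, 7 bins overlapped Rab6a, a gene of Golgi transport, with 6 Sertoli and 5 pre-granulosa calls. Some differed widely, with 13.9 and 3.43 at 90.9 kb and 7.95 and 1.99 at 96.3 kb, whereas 14.4 and 10.3 were both high at 79.7 kb. All 4 bins over Plekhb1 were Sertoli calls and 1 was also a pre-granulosa call. The other fragments, Mrpl48-205 and Mrpl48-208, each hold a start of the gene and differed in order. Mrpl48-205 had 8 Sertoli and 9 pre-granulosa calls, 4 of both, and Mrpl48-208 had 11 and 6. The order was the same for the extended bin of Mrpl48-205, 9 against 13. It contacted Ucp2, a gene for a mitochondrial carrier, with 1.28 in Sertoli and 7.36 in pre-granulosa cells, and the Rab6a bin, which also spans the main start of Mrpl48, with 11.5 and 13.3.

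Mrpl23 lies in the imprinted region of Igf2 and H19. With the original bait it had 8 Sertoli and 2 pre-granulosa calls, and the bin over H19, 46.7 kb away, was called in both (6.39 and 5.57). In the extended table the order turned to 10 Sertoli and 12 pre-granulosa calls, 9 of both. Igf2, a growth factor gene 125 kb away, then scored 17.6 and 20.6, and Ins2 7.87 and 8.09. Mrpl24 also turned, from 8 and 3 to 6 and 7 calls, with bins over Prcc among its partners (7.57 and 6.47, and 6.12 and 6.10). Mrpl17 had 7 and 4 calls, the highest over Rrp8 (10.7 and 14.7) and over Ilk and Taf10 (9.51 and 12.3), and its extended bin also turned, to 6 and 8. Mrpl9 had extended calls only, with Tdrkh, a germ cell gene of the piRNA pathway, at 31.0 and 21.4, and Selenbp2, 254 kb away, at 9.55 and a listed 0. The longest original contact was that of Mrpl33, 577 kb, with 5.12 and 0.402.

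The small mitoribosomal subunit had 14 Sertoli and 10 pre-granulosa calls over 9 baits, 2 of both. The ratio was 1.40, against 1.93 over all baits. More Sertoli calls were found at 3 baits, more pre-granulosa calls at 4 and equal numbers at 2. With equal totals of calls the order turned, to 4 and 10, and over the extended bins to 22 and 32. Mrps22 stood out by where its contact ended. Its fragment (chr9:98601216-98602990) contacted chr9:98951010-98954959, 351 kb away, with 0.115 in Sertoli and 5.97 in pre-granulosa cells, the largest difference towards pre-granulosa cells among the original contacts on the same scale. This bin lies within the RefSeq span of Foxl2os (chr9:98949155-98955310), an antisense RNA gene, and ends 0.648 kb before Foxl2, which encodes a transcription factor of granulosa cell identity. With the extended bait the contact was listed again, with a bin ending 1.52 kb before Foxl2, at 0 in Sertoli and 6.05 in pre-granulosa cells. In a window of 20 kb on either side of Foxl2 this was the 1 interaction listed in each table, and no bait analysed here lay in it. Both scores were near the threshold of 5, no library-level value supports them, and both tables come from the same libraries.

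Other small subunit baits differed between the cell types at single bins. Mrps28 scored 2.16 and 5.99 over Hey1, a Notch target gene, 259 kb away, and 6.82 and 0.820 at 334 kb. Mrps35 contacted Arntl2, a clock gene, with 0.980 and 6.23. Mrps11, whose head-to-head promoter with Mrpl46 is shown above, scored 3.61 and 11.8 at 109 kb and 6.27 and 2.30 at 98.7 kb. Mrps17 had 4 Sertoli calls and no pre-granulosa call, with pre-granulosa scores from 0.221 to 3.92, whereas its extended bin had 2 and 1. Mrps21 had 2 and 3 calls, the highest at Car14, a carbonic anhydrase gene (8.53 and 12.3).

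Among import genes, Tomm40l, a homologue of the TOM channel gene Tomm40, had 15 Sertoli and 12 pre-granulosa calls, 9 of both. Of its 18 listed contacts 17 lay on one side of the fragment (chr1:171221805-171222228), out to 117 kb. Its scores ran from 1.55 to 20.1 in Sertoli cells (median 7.72) and from 0.636 to 18.1 in pre-granulosa cells (median 6.37). The highest Sertoli score lay over Cfap126, a cilium gene (20.1 and 11.5), and the highest pre-granulosa score lay over Sdhc, the gene of a complex II anchor subunit (10.3 and 18.1, at 89.0 kb). Of the 4 bins over Sdhc, each cell type called 3, and 2 were calls of both. With the extended bin, which also names Apoa2, the order turned to 26 Sertoli and 27 pre-granulosa calls, 24 of both. Its 3 Cfap126 bins scored 42.5 and 29.2, 34.9 and 33.5, and 25.3 and 23.8.

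Timm10b, a small chaperone of inner membrane import, leaned to pre-granulosa cells in both tables. All 3 original contacts were called in pre-granulosa cells alone, though none reached 7. They scored 2.91 and 5.37 over Apbb1 and Smpd1, 3.96 and 5.40 over Dnhd1, and 3.50 and 5.90 over Ilk and Taf10. Its extended bin had 2 Sertoli and 7 pre-granulosa calls, none of both. The 7 included Dnhd1 (4.03 and 8.14), Trim3 (4.81 and 7.66) and Ilk with Rrp8 (2.74 and 6.85). Timm29, of the carrier translocase, had 4 Sertoli calls and no pre-granulosa call with the original bait, and 2 and 1 with the extended one. Its 3 bins over Carm1, an arginine methyltransferase gene, scored 8.83 and 1.36, 7.51 and 1.08, and 7.47 and 4.56. Timm44 contacted Cers4 217 kb away at 6.17 and a listed 0. Timm50, a receptor for arriving proteins, contacted Dll3 in both (6.12 and 5.33) and Plekhg2 in Sertoli cells (6.63 and 3.04). The bin named for Apoe and Tomm40 had 14 Sertoli and 7 pre-granulosa calls, with its strongest Sertoli score at Apoc2 (32.3 and 11.9).

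Partner promoters were read from the extended baits. Of the 553 listed interactions 306 ended at another bait bin (55.3%, 95% Wilson interval 51.2 to 59.4, against 54.8% over all bins), in 275 bins with 269 gene symbols. Contacts with bait bins were called in both cell types more often than contacts with other bins, at 56.7% of Sertoli calls (50.6 to 62.7) against 42.3% (35.6 to 49.3). Over all baits these shares were 52.2% and 33.8%. Of the 306, 228 (74.5%, against 68.2% over all bait pairs) were also listed from the other end.

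Contacts between members made up 11 of the 306 listings with a bait bin (3.59%). Members are 0.823% of all bins, but this is not a like share, because it counts whole chromosomes and cis contacts favour near bins. No share of contacts within a gene or gene family was computed over all baits, so no excess can be read from these values. The 11 join 6 pairs of bins, and 4 of these pairs, within Ndufb5, Uqcrc1 and Mrpl48, join bins of the same gene. Mrpl48-201 and Mrpl48-205, 43.4 kb apart, scored 18.8 and 8.53 from one end and 23.3 and 11.0 from the other. The pair of Timm10b and Mrpl17, 166 kb apart, scored 4.80 and 8.69 from Timm10b and 7.19 and 9.75 from Mrpl17, so Sertoli cells called it from 1 end alone. Several bins were partners of more than 1 member. The bin of Polr2i and Ovol3 was contacted from both Cox7a1 and Sdhaf1, a Braf bin from Ndufb2 and Mrps33, and the Celsr3-201 bin from Ndufaf3 and all 3 Uqcrc1 bins. In all, 24 partner bait bins and 18 other bins were contacted by 2 or more member bins. Ndufb5 contacted Mfn1, a gene of mitochondrial fusion, 206 kb away in pre-granulosa cells alone (0.911 and 5.69). Of a list of 89 other mitochondrial genes, Coa4 was the 1 partner, listed from all 3 Mrpl48 bins.

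The 25 genes of that list with original baits (35 baits), which include tRNA synthetases, translation factors, biogenesis regulators and assembly factors, had 136 Sertoli and 57 pre-granulosa calls, a ratio of 2.39 against 1.93 over all baits. There were more Sertoli calls at 23 baits (65.7%, against 65.2% of all baits) and more pre-granulosa calls at 5. Without its 4 baits of 10 or more listed interactions the ratio was 1.97, against 1.89 over all baits under the same limit. With equal totals of calls over the table the list had 73 and 57, a ratio of 1.28. Among extended bins the 37 genes of the list (47 bins) had 218 and 146 calls, a ratio of 1.49 against 1.41 over all bins. The baits with the most calls were Gabpb2-204, of a GABP subunit (24 Sertoli and 5 pre-granulosa calls), Nrf1-214, of NRF-1 (16 and 6), Mtif3-202, of a mitochondrial initiation factor (8 and 8), and Tars2-210, of a tRNA synthetase (15 and 1). Among extended bins they were Gabpb2-204 (27 and 13), Pet100 (17 and 10), Mtx1 (11 and 12) and Foxred1 (10 and 8). Gabpb2 and Nrf1 encode factors whose motifs were searched above. Baits of cytosolic ribosomal protein genes, as a comparison, had 1.64 Sertoli calls per pre-granulosa call (27 original baits), and 27.5% of their Sertoli calls were called in both (18.4 to 39.0), and proteasome baits had 2.0 and 20.6% (10.3 to 36.8, 13 baits). The intervals of both overlap that of the mitochondrial genes with the original baits, 28.5 to 40.8. Over the extended bins the share was 49.7% for ribosomal protein genes (42.0 to 57.4) and 31.3% for proteasome genes (21.5 to 43.2), and the latter interval lies below that of the mitochondrial genes, 45.8 to 55.1. Without the bins of 10 or more listed interactions the intervals overlap, with 36.0% for proteasome genes (24.1 to 49.9) and 43.4% for the mitochondrial genes (36.9 to 50.1).

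Of 15 genes chosen as landmarks of these pathways, 4 had an original bait (Cox5b, Cox6b2, Uqcrc1 and Uqcrc2) and 7 an extended one, with Sdhb, Timm50 and Tomm40 in addition, and the other genes were not analysed here.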

How the data were processed

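Capture Hi-C interactions of sorted mouse gonadal cells were read from 2 tables deposited by the authors. Their values are CHiCAGO scores, per the names of the deposited tables, with 1 score column for the 3 Sertoli and 1 for the 2 pre-granulosa libraries. The build is mm10, per the submitters' processing notes, and the aligner, tool versions, read filters and the way libraries were combined are not given in the sources used here. A call is a score of at least 5. Shares carry 95% Wilson intervals and medians order-statistic intervals. No test was made, since each cell type has 1 column, and the precision per library is unknown. Members, gene lists and the rule for named genes (most calls, largest differences, highest scores and landmark genes) were chosen with earlier results of these data known. The rule names baits and contacts, and others named beside them were chosen after their values were seen. RefSeq GRCm38.p6 gave gene spans and promoter windows, and promoter entries were missing for 13 original baits, among them Tomm40l, Cox4i2, Cox6a2 and Uqcrc2. The contacts of 1 member gene enter the counts but are not reported here one by one. Scripts were tested on simulated data. Analyses used Python 3.11.15, pandas 2.3.3, numpy 2.4.6 and scipy 1.17.1, and alternatives changed the threshold, the table, the distance limit, the merging of touching bins and the equalising of calls.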

Additional observations from a re-analysis of the deposited data

Results flagged for a closer look

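The comparisons above leave out interactions of baits on the X chromosome and interactions between chromosomes, and member baits had a few of each above the score of 5. With the extended baits 4 interactions of 2 member bins on the X chromosome were listed, with 1 Sertoli call and 4 pre-granulosa calls. Baits on the X chromosome as a whole leaned the same way, with 374 Sertoli and 703 pre-granulosa calls of 901 listed interactions. With the original baits they had 135 and 352 of 451. Sertoli cells come from the testis and pre-granulosa cells from the ovary. For the X chromosome a difference between cell types therefore cannot be told apart from one between the sexes. The bin of Timm17b, a subunit of the inner membrane translocase, and Pqbp1 scored 6.17 in Sertoli and 12.3 in pre-granulosa cells with a bin at chrX:7879590-7884864 and 1.23 and 5.03 with another. Timm8a1, an import chaperone gene, scored 1.44 and 5.57, and 0.820 and 6.17. Between chromosomes, 1 interaction was listed in each table, that of Timm10b on chromosome 7 with chr8:53075093-53080219, at 0 in Sertoli cells in both tables and at 6.45 and 5.01 in pre-granulosa cells with the original and the extended bait.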

How the results depend on the processing

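No paired analysis was possible because each cell type has 1 pooled column, and for the same reason no library could be left out. Results of all members that moved and results that turned follow, and where no reason is given the cause was not tested. Results counted as unchanged are left out, apart from those of merging touching bins. Merging gave 166 Sertoli calls (from 224), 112 pre-granulosa calls (from 134) and a ratio of 1.48. It left 8 groups with more Sertoli calls, from 9. With equal numbers of calls over the whole table Sertoli calls per pre-granulosa call turned from 1.67 to 0.836 (1.03 with the extended baits, added after the data were seen), with 112 Sertoli calls, 48.2% of them and 40.3% of pre-granulosa calls called in both, 15 against 23 baits with more calls, 3 of 11 groups with more Sertoli calls and a ratio of 1.28 for the other mitochondrial genes, the last 2 chosen after the data were seen. At a threshold of 7 there were 86 Sertoli and 51 pre-granulosa calls, 20 and 7 baits with more calls, and a pre-granulosa median distance of 31.7 kb. At 10 there were 31 and 23 calls, a ratio of 1.35, 41.9% of Sertoli calls in both, 11 and 6 baits, medians of 58.5 and 31.7 kb, and 3 of 11 groups with more Sertoli calls in place of 9. With the extended baits the calls were 448 and 331, the shares 50.4% and 68.3%, and 21 baits had more pre-granulosa calls. At 50 kb or more there were 109 and 62 calls, 28.4% of Sertoli calls in both, 6 baits with more pre-granulosa calls and medians of 98.7 and 94.9 kb. Without the 5 baits of 10 or more listed interactions, an alternative chosen after the data were seen, there were 143 and 74 calls and shares of 22.4% and 43.2%. Counted as specific only where the other score was under 1, the Sertoli-specific calls were 31 and those of pre-granulosa cells 6. For contacts with another bait bin the share of 55.3% became 60.3% at 7, 68.4% at 10 and 63.9% for bins that name members only, and at 10 member pairs had 3 listings in place of 11. The ratio of the other mitochondrial genes, 2.39, became 1.70 at 10 and 1.49 with the extended baits. Among the original baits with the most calls or the largest differences, the difference of Sertoli minus pre-granulosa calls turned for Ndufs3-201 at a threshold of 10 (-2, from 6) and with the extended baits for Tomm40l (-1), Mrpl23-201 (-2), Mrpl24 (-1) and Atp5l-201 (1, from -1). Among the other baits the extended table turned it for Mrpl17-202 (-2, from 3), Mrpl19-201 (-1, from 2), Ndufb2-205, Ndufb5-204 and Mrpl1-202 (each -1, from 1), Ndufab1-201 (3, from -1), Mrps18c-201 (1, from -1) and Cox6b2-208 (7, from -1). Of the 48 settings tried on 12 single baits, 16 moved the difference by over 1 with its sign kept and 6 moved it by over 1 to 0, those of Timm10b at 7 and 10 (from -3), Mrpl48-208 with the extended baits (from 5), Mrpl23-201 at 10 (from 6) and Ndufaf3-201 at 10 and at 50 kb or more (from 2). The unknown depth and the unequal numbers of libraries limit every comparison of the cell types.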
